A study of Homo sapiens with 8 samples.

Results

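A set of 9 genes of interferon and cytokine signalling was examined: the kinase genes JAK1 and TYK2, the STAT genes STAT2 and STAT3, and the interferon regulatory factor genes IRF1, IRF2, IRF3, IRF7 and IRF9. They were chosen by symbol, with earlier results of these data known, and all 9 were found among the 22808 symbols of the count table. RNA came from RD18, a human cell line of fusion-negative rhabdomyosarcoma, a tumour of the skeletal muscle lineage. In 4 libraries the cells had been transfected with the microRNAs miR-449a and miR-340-5p, and in the 4 vehicle libraries with lipofectamine, the transfection reagent. All cells were taken at 60 h. The labels name no control RNA in the vehicle, so the microRNA sequences and the presence of transfected RNA cannot be told apart, and all results are from 1 cell line. Whether the replicates of a group were grown as separate cultures is not stated, so the p-values cover the spread between the libraries alone, which may be technical.

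JAK kinases sit on the inner side of cytokine receptors and, when a ligand binds, phosphorylate STAT proteins, which then enter the nucleus and switch on genes. Type I interferon receptors use JAK1 and TYK2. STAT2, paired with another STAT, binds IRF9 to form ISGF3, the complex that reads the interferon-stimulated response element (ISRE). STAT3 mainly answers to cytokines of the interleukin 6 family. IRF3 and IRF7 are activated by sensors of foreign nucleic acid and drive interferon genes, IRF1 activates many interferon-responsive genes, and IRF2 can oppose IRF1 at the same sites.

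The transfected microRNAs are shown because their seeds define the words searched for in the 9 transcripts further on. The sequences are the mature forms in RefSeq (GRCh38.p14), with the seed, bases 2 to 8, in capitals. The 2 microRNAs do not share a seed.
hsa-miR-449a: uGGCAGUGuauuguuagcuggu
hsa-miR-340-5p: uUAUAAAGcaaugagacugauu

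Library totals ran from 2842165 to 5569342 counts with the microRNAs and from 2567737 to 4650213 with vehicle. The correlation of log2 CPM (the count of a gene relative to its library's scaled total) was at least 0.972 within groups and at most 0.859 between them. Of the 6 marker genes set for the line, MYOD1, the master regulator of the muscle lineage, averaged 108 ± 3.72 CPM with the microRNAs and 204 ± 21.7 CPM with vehicle (SD, n = 4 each), and all 5 that were tested were lower with the microRNAs. MYOG, a later factor of muscle differentiation, averaged 0.646 ± 0.372 CPM with the microRNAs and 10.4 ± 1.89 CPM with vehicle (SD, n = 4 each), and MYF6 had 2 counts in all with the microRNAs and 1 with vehicle. The 4 leukocyte markers analysed here, PTPRC, CD3E, LYZ and CD68, summed to 1.93 to 2.73 CPM with the microRNAs and 1.26 to 2.92 CPM with vehicle, with LYZ at 0 in all microRNA libraries. Of the 4 endothelial markers, the 2 analysed here summed to 0 to 1.29 CPM with the microRNAs and 0 to 0.674 CPM with vehicle. VWF was at 0 in all vehicle libraries, and CDH5 and KDR were not analysed here. Of the 4 epithelial markers, the 2 analysed here summed to 1.02 to 2.58 CPM with the microRNAs and 0 to 0.418 CPM with vehicle. CDH1 was at 0 in all vehicle libraries, and KRT5 and KRT19 were not analysed here. The part of other cells in the results was not tested.

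All 9 genes were higher in the cells given the microRNAs. Each passed the edgeR quasi-likelihood test (two-sided, Benjamini-Hochberg adjusted p under 0.05 over 12366 tested genes), and for each the lowest microRNA library lay above the highest vehicle library. Over all tested genes 67.3% passed, 33.4% as higher and 34.0% as lower, and in 29.2% every microRNA library lay above every vehicle library. The median log2 fold change of the 9 was 1.40, against -0.000671 over all tested genes. Because the 9 were chosen with earlier results known, they are no neutral sample of genes. IRF7 and IRF9, with 31 and 12 vehicle counts in all, could not have passed the filter on low counts through the vehicle libraries alone. Of the 9 genes, 4 rose at least 5-fold (IRF7, IRF9, IRF1 and STAT2), 2 between 2-fold and 5-fold (IRF2 and JAK1) and 3 by less than 2-fold (IRF3, TYK2 and STAT3). Over all tested genes 12.5% were called higher with a rise of at least 2-fold. In bulk RNA of this kind, more cells that express a gene and more RNA per cell cannot be told apart.

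**Figure D1:**
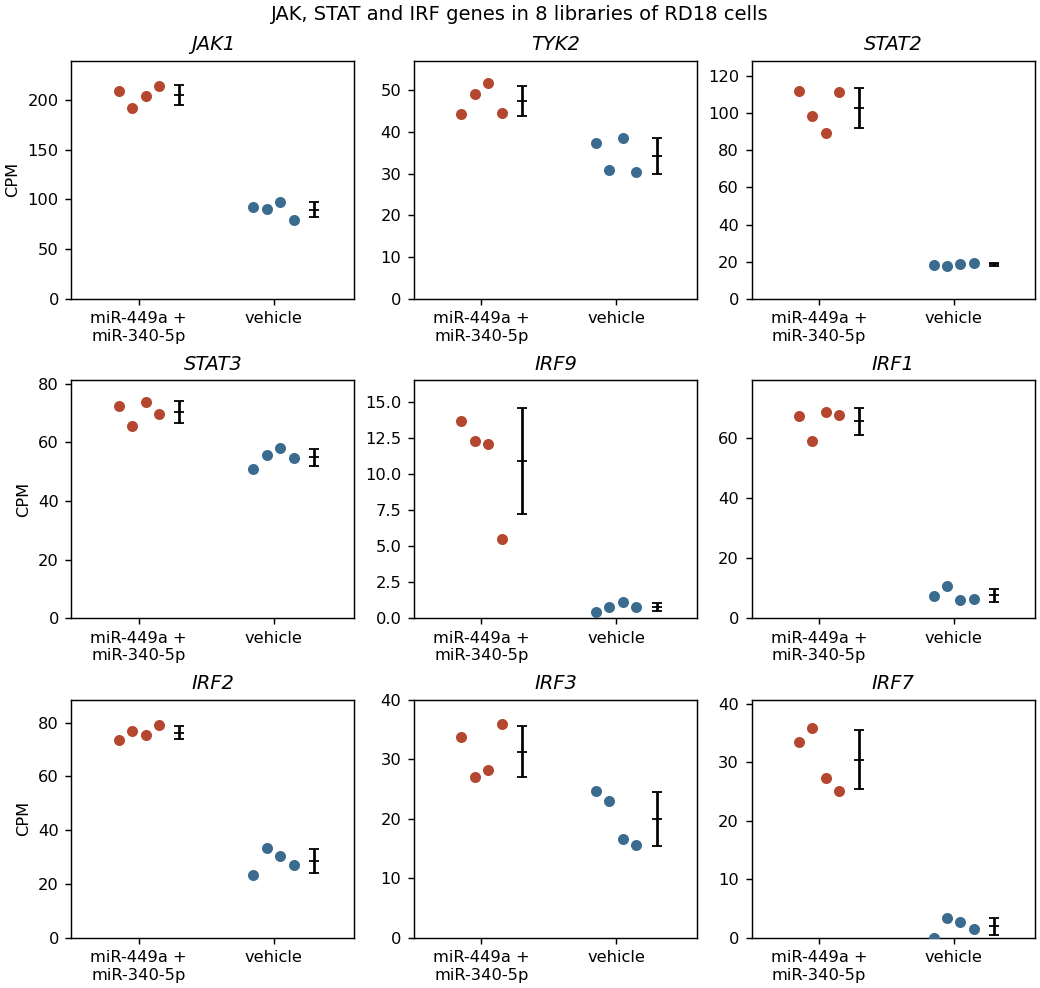
CPM (vertical axes, from 0) of each of the 9 genes in the 4 microRNA libraries (left, red) and the 4 vehicle libraries (right, blue), with mean and SD beside the points. In all 9 panels the 2 groups are apart; the gap is narrow for STAT3, TYK2 and IRF3 and wide for STAT2, IRF1, IRF7 and IRF9.

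The kinase genes rose by unequal amounts. JAK1, on chromosome 1 (64833229 to 64966504, minus strand, GRCh38 with GENCODE 29), measured 209.7, 192.1, 204.2 and 214.7 CPM in the microRNA libraries, against 92.9, 90.4, 97.0 and 79.1 CPM in the vehicle libraries. Every microRNA library was at least 1.98 times the highest vehicle library. The rise was 2.28-fold (log2 fold change 1.19, SE 0.07, edgeR adjusted p = 8.65e-22), and 9.22% of tested genes rose more. TYK2, which partners JAK1 at type I interferon receptors and lies on chromosome 19 (10350529 to 10380676, minus strand), measured 44.4, 49.0, 51.6 and 44.4 CPM with the microRNAs, against 37.2, 30.8, 38.6 and 30.4 CPM with vehicle. The groups came close, with the lowest microRNA library 1.15 times the highest vehicle library. TYK2 rose 1.38-fold (log2 fold change 0.47, SE 0.11, edgeR adjusted p = 0.000269), and 28.8% of tested genes rose more.

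STAT2 and STAT3 differed widely in the size of their rise. STAT2, the STAT particular to interferon signalling, lies on chromosome 12 (56341597 to 56360155, minus strand). It measured 112, 98.4, 89.2 and 111 CPM in the microRNA libraries, against 17.99, 17.9, 18.9 and 19.3 CPM in the vehicle libraries. The vehicle values were nearly equal, with an SD of 3.83% of their mean, and the lowest microRNA library was 4.61 times the highest of them. The rise was 5.54-fold (log2 fold change 2.47, SE 0.11, edgeR adjusted p = 1.51e-28). STAT3, on chromosome 17 (42313324 to 42388568, minus strand), measured 72.4, 65.5, 73.7 and 69.5 CPM with the microRNAs, against 51.0, 55.7, 58.2 and 54.5 CPM with vehicle. That was the smallest rise of the 9, at 1.27-fold (log2 fold change 0.35, SE 0.09, edgeR adjusted p = 0.000957), and 33.8% of tested genes rose more. Per kilobase of exon STAT2 was the more abundant of the pair in every microRNA library, and STAT3 in every vehicle library.

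IRF9, the DNA-binding subunit of ISGF3 on chromosome 14 (24161053 to 24166565, plus strand), had the lowest mean level per kilobase of the 9 in both groups. It had 77, 72, 35 and 17 counts in the microRNA libraries, or 13.7, 12.3, 12.1 and 5.47 CPM, against 1, 3, 5 and 3 counts, or 0.418, 0.777, 1.12 and 0.754 CPM, in the vehicle libraries. MicroRNA replicate 4 was low against the other 3 but still 4.87 times the highest vehicle library. IRF9 rose 13.2-fold (log2 fold change 3.73, SE 0.37, edgeR adjusted p = 2.15e-13), with the largest SE of the 9. In GENCODE 29, 48.4% of its exon bases also belong to AL136295.5 on the same strand. That gene is not analysed here, and whether reads in the shared bases were counted for IRF9 is not given in the sources used here.

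IRF1 rose more than IRF2, which competes with it for the same sites. IRF1, on chromosome 5 (132481609 to 132490798, minus strand), measured 67.1, 58.9, 68.5 and 67.6 CPM in the microRNA libraries, against 7.53, 10.6, 6.06 and 6.28 CPM in the vehicle libraries. The lowest microRNA library was 5.54 times the highest vehicle library. The rise was 8.58-fold (log2 fold change 3.10, SE 0.15, edgeR adjusted p = 3.61e-27). IRF2, on chromosome 4 (184387713 to 184474580, minus strand), measured 73.5, 76.9, 75.4 and 79.2 CPM with the microRNAs, against 23.4, 33.4, 30.3 and 26.9 CPM with vehicle, a rise of 2.63-fold (log2 fold change 1.40, SE 0.11, edgeR adjusted p = 6.45e-18). IRF1 shares 22.0% of its exon bases with genes on the other strand, mainly C5orf56, which averaged 13.8 ± 0.926 CPM with the microRNAs and 1.76 ± 0.849 CPM with vehicle (SD, n = 4 each). The library kit keeps the strand, but the strand setting of the counting is not given, so reads of IRF1 and C5orf56 in those bases may not have been told apart.

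IRF7 rose more than IRF3, its close relative. IRF7, the inducible driver of interferon alpha genes on chromosome 11 (612553 to 615999, minus strand), had 188, 210, 79 and 78 counts in the microRNA libraries, or 33.4, 35.8, 27.2 and 25.1 CPM. The vehicle libraries held 0, 13, 12 and 6 counts, or 0, 3.37, 2.69 and 1.51 CPM. The count of 0 in vehicle replicate 1, the shallowest library, allows up to 1.26 CPM by a floor of 3 counts, for counting error only. The rise of IRF7 was the largest of the 9, at 14.5-fold (log2 fold change 3.86, SE 0.25, edgeR adjusted p = 7.39e-19), and 0.429% of tested genes rose more. IRF3, which is present before infection in most cells and lies on chromosome 19 (49659569 to 49665875, minus strand), measured 33.7, 27.1, 28.2 and 36.0 CPM with the microRNAs, against 24.7, 23.0, 16.6 and 15.6 CPM with vehicle. Its groups were the closest of the 9, with the lowest microRNA library 1.10 times the highest vehicle library, and it rose 1.59-fold (log2 fold change 0.67, SE 0.15, edgeR adjusted p = 6.18e-05). IRF3 shares 19.3% of its exon bases with BCL2L12 on the other strand, which was lower with the microRNAs (39.5 ± 2.74 CPM, against 72.9 ± 7.93 CPM with vehicle, SD, n = 4 each).

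**Figure D2:**
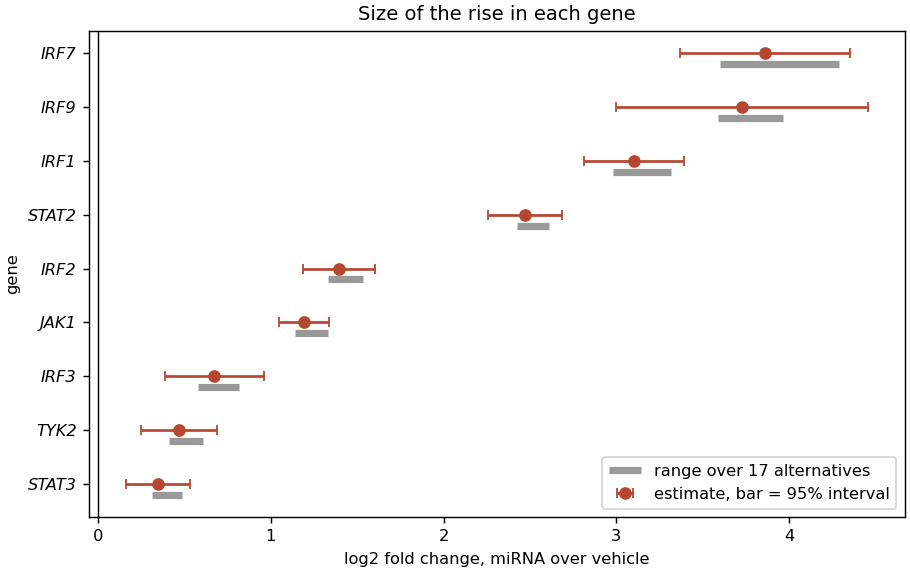
Log2 fold change, microRNA over vehicle (horizontal axis), of the 9 genes from the largest at the top to the smallest at the bottom. Red points are the edgeR estimates with 95% intervals from the SE as bars, and grey bars span the values under 17 other settings; IRF7 is at 3.86 and STAT3 at 0.35, and no bar reaches 0.

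Levels were compared between genes as CPM per kilobase of annotated exon, since longer transcripts give more reads. The length is that of all annotated exons of a gene merged, not of 1 transcript, with 7799 bases for IRF1 and 2628 for IRF7. Orders, spans and shares of levels per kilobase thus depend on the annotation. For IRF9 they also depend on how reads in its shared bases were counted. With the microRNAs JAK1 stood highest at 32.5 ± 1.54 CPM per kb and IRF9 lowest at 2.86 ± 0.967, a span of 11.3 times. With vehicle JAK1 was also highest, at 14.2 ± 1.21 CPM per kb, and IRF9 lowest, at 0.202 ± 0.0759 (SD, n = 4 each), a span of 70.3 times. The order with the microRNAs was JAK1, IRF2, STAT2, IRF7, IRF1, IRF3, STAT3, TYK2 and IRF9. From IRF1 to TYK2 the libraries of neighbouring genes overlapped, and the other neighbours did not. The order with vehicle was JAK1, IRF2, STAT3, IRF3, TYK2, STAT2, IRF1, IRF7 and IRF9. Here the libraries of STAT3 overlapped those of IRF3, those of IRF3 those of TYK2, those of IRF1 those of IRF7, and those of IRF7 those of IRF9.

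The 4 genes that rose most were the 4 lowest in the vehicle cells per kilobase. Across the 9 genes the vehicle level and the log2 fold change had a Spearman correlation of -0.717, given as a description because the vehicle level enters both and all points share the same libraries. STAT2 held place 3 with the microRNAs and place 6 with vehicle, and IRF7 place 4 with the microRNAs and place 8 with vehicle. Among the 5 IRF genes, IRF7 made up 20.8 ± 3.001% of the summed level per kilobase with the microRNAs and 4.21 ± 3.03% with vehicle. IRF1 made up 15.1 ± 1.27% with the microRNAs and 5.94 ± 0.930% with vehicle. IRF3 made up 14.9 ± 2.06% with the microRNAs and 32.4 ± 7.28% with vehicle (SD, n = 4 each for the 3 genes). IRF2 had the largest share of the 5 in both groups, at 44.1 ± 2.28% with the microRNAs and 56.2 ± 5.00% with vehicle.

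**Figure D3:**
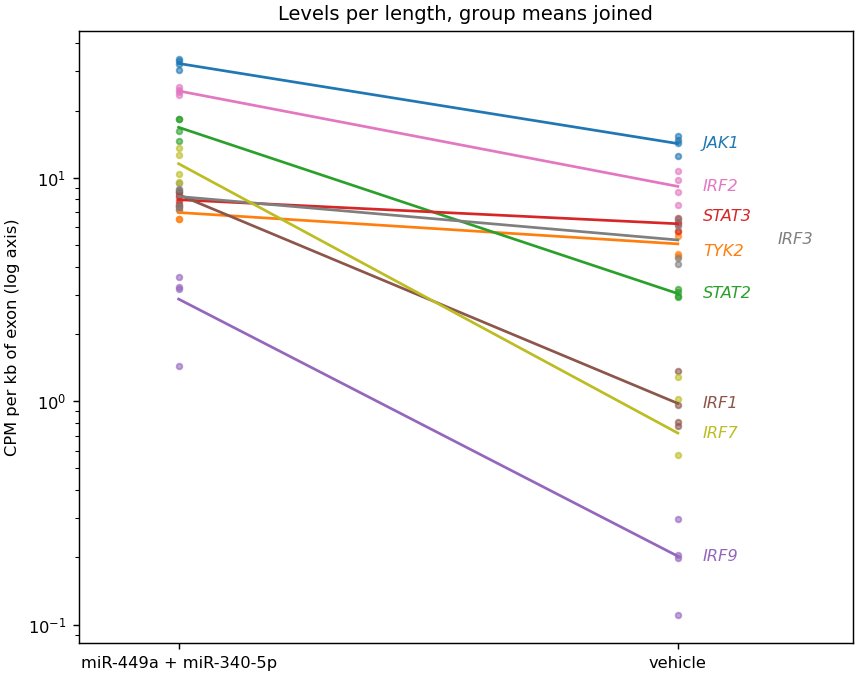
CPM per kb of exon (log axis) of the 9 genes with the microRNAs (left) and vehicle (right), with points for libraries and lines joining group means; the IRF7 count of 0 in vehicle replicate 1 has no point on the log axis. The 9 means span 11.3 times on the left and 70.3 times on the right.

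Whether related factors rose unequally was tested on the log2 ratio of 2 genes within each library. The scaling between libraries enters this ratio only through the added prior count of 2, which weighs most at low counts. The 5 pairs were tested with a two-sided exact permutation test over the 8 libraries, for which 0.0286 is the smallest p that 4 against 4 allows. These pairs were chosen with earlier results of these data known. Low p-values were therefore likely beforehand and are given as a description. For STAT2 over STAT3 the log2 ratio averaged 0.54 ± 0.18 with the microRNAs and -1.54 ± 0.08 with vehicle, a difference of 2.08 (SE 0.10). For IRF1 over IRF2 it averaged -0.22 ± 0.12 with the microRNAs and -1.86 ± 0.32 with vehicle, a difference of 1.64 (SE 0.17). For TYK2 over JAK1 it averaged -2.11 ± 0.16 with the microRNAs and -1.38 ± 0.11 with vehicle (SD, n = 4 each for the 3 pairs), a difference of -0.72 (SE 0.10), with JAK1 rising more than TYK2. In these 3 pairs and in IRF7 over IRF3 the groups did not overlap, and each of the 4 had an exact p of 0.0286 and an adjusted p of 0.0357 over the 5 pairs.

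For IRF7 over IRF3 the log2 ratio averaged -0.05 ± 0.37 with the microRNAs and -3.42 ± 1.51 with vehicle (SD, n = 4 each), a difference of 3.38 (SE 0.78). Its size rested on vehicle replicate 1, where IRF7 had no count: without that library the difference was 2.63, and with a prior count of 0.5 in place of 2 it was 4.00. For IRF9 over STAT2, the named subunits of ISGF3, the ratio averaged -3.25 ± 0.65 with the microRNAs and -3.94 ± 0.31 with vehicle (SD, n = 4 each). That difference of 0.69 (SE 0.36) did not pass (exact p = 0.114, also 0.114 adjusted over the 5 pairs), which does not show that the 2 genes rose alike. With a prior count of 0.5 it was 1.14 (exact p = 0.0571).

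**Figure D4:**
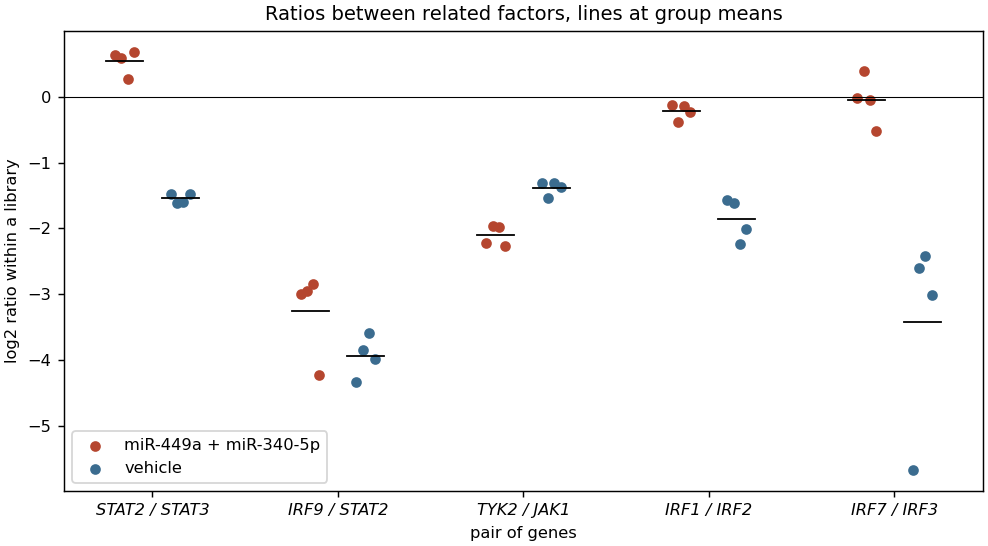
Log2 ratio of 2 genes within each library (vertical axis) for 5 pairs, microRNA libraries in red on the left and vehicle libraries in blue on the right, with black lines at group means. The groups are apart in 4 pairs and overlap for IRF9 over STAT2, where microRNA replicate 4 lies among the vehicle libraries.

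The promoters of the 9 genes were searched for 2 words of the pathway, both on both strands. One was a core of the ISRE, GAAA and GAAA with any 2 bases between them, and the other TTCNNNGAA, the palindromic core of the gamma-activated site (GAS) that STAT dimers bind. RefSeq windows of 250 bases before to 50 bases after the start site (GRCh38.p14) were at hand for 6 of the 9, all but IRF2, IRF3 and IRF7. The JAK1 window (chr1:65067697-65067996) lies upstream of and apart from the GENCODE 29 span of JAK1 given above, so it belongs to another annotated start. The other 5 overlap the start of the span given above. None of the 6 windows held the ISRE word, and those of IRF1 and IRF9 held the GAS word. The ISRE word was in 2.67% and the GAS word in 6.24% of the 8750 promoters of tested genes. IRF1 (chr5:132490724-132491023, minus strand) and IRF9 (chr14:24161015-24161314, plus strand) are printed in the direction of transcription, with the GAS word in capitals. It begins 124 bases before the RefSeq start site in IRF1 and 63 bases before that of IRF9. The IRF9 word, at chr14:24161202-24161210, lies inside the GENCODE 29 span of IRF9, which starts further upstream. A match is a match of letters only.
IRF1 promoter: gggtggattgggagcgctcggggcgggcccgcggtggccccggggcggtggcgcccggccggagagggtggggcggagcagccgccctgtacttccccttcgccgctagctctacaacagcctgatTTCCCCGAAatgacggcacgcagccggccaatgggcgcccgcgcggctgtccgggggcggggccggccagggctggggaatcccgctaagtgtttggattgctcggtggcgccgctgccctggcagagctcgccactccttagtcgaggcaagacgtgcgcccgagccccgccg
IRF9 promoter: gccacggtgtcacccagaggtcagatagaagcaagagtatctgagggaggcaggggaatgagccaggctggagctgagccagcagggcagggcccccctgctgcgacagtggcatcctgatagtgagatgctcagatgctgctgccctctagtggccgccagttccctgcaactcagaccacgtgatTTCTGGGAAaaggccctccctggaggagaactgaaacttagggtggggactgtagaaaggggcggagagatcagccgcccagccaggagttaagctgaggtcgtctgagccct

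For each gene the longest 3′ UTR that GENCODE 29 gives was searched for the reverse complement of each seed. That word is CACTGCC for the first microRNA and CTTTATA for the second. Of the 9 genes, 4 held 1 word each: STAT3 and IRF1 that of miR-449a, and IRF9 and JAK1 that of miR-340-5p. The 3′ UTRs searched ran from 78 bases in IRF3 and 92 in IRF7 to 2421 in STAT3. The median over tested genes was 1470 bases, and a short 3′ UTR has few places for a word. Among 10525 tested genes with a 3′ UTR of at least 50 bases, 17.9% held the miR-449a word and 19.9% the miR-340-5p word. All 4 of these genes were higher with the microRNAs, as were the 5 without a word. Over all genes with the miR-449a word 28.2% were called higher and 40.9% lower, against 36.6% and 32.1% of those without it. With the miR-340-5p word 35.3% were called higher and 34.1% lower, against 35.1% and 33.6% without it. The 4 sites are shown with the word in capitals, 5′ to 3′ on the transcript, at chr17:42313552-42313558, chr5:132483832-132483838, chr14:24166504-24166510 and chr1:64833253-64833259 (GRCh38) in the order printed.
STAT3: ccgcttcctgtcCACTGCCccctccccat
IRF1: caagtgtgacccCACTGCCaagtggggat
IRF9: taaagccaagcaCTTTATAttttcctctt
JAK1: actttgtttactCTTTATAcaaataaata

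Genes around the 9 were read from lists of the pathway. Of 9 listed interferon ligand genes, 1 is analysed here, IFNL1, a type III interferon. It had 16, 11, 7 and 3 counts in the microRNA libraries and 2 counts in all vehicle libraries together, a ratio of 15.5 with an exact 95% interval from 4.00 to 133 for counting error. Its counts were under the filter of the fit, so it has no call there. With no filter on low counts it was called higher (log2 fold change 3.67), as it was with a filter of at least 1 CPM in 4 libraries (3.66). Of the 14 other cytokine ligands, 3 were tested, and IL11, an interleukin 6 family cytokine, rose 4.54-fold (11.6 ± 1.49 CPM with the microRNAs, 2.43 ± 1.43 CPM with vehicle, SD, n = 4 each). The other two did not pass.

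Interferon receptor genes gave mixed calls. Among 5 tested, 2 rose, 1 fell and 2 missed the threshold, and their median log2 fold change was 0.38. These shares were near those of all tested genes, of which 33.4% were called higher and 34.0% lower. IL10RB, a subunit of the type III receptor, rose 1.97-fold to 27.3 CPM with the microRNAs, against 14.0 CPM with vehicle. IFNAR1, a subunit of the type I receptor, averaged 40.6 CPM with the microRNAs and 35.7 CPM with vehicle and did not pass (edgeR adjusted p = 0.227), but did when scaled by library size alone (adjusted p = 0.0274). IFNAR2, its partner, was called 1.30-fold higher. That call was lost with DESeq2 (adjusted p = 0.0518), with limma-voom (0.0519), without microRNA replicate 3 (0.1003) or 4 (0.0785) and without vehicle replicate 1 (0.115), 3 (0.0726) or 4 (0.0564). IFNGR2, of the interferon gamma receptor, was called lower (log2 fold change -0.41), a call lost with DESeq2 (adjusted p = 0.0675), with library size alone (0.140), without microRNA replicate 1 (0.160) and without vehicle replicate 3 (0.176).

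Of 10 tested receptors for other cytokines, 7 rose, 1 fell and 2 did not pass (median 0.84), beside 33.4% higher and 34.0% lower over all. IL6ST, the signal-transducing chain gp130 of the interleukin 6 family, rose 2.75-fold, the leukaemia inhibitory factor receptor gene LIFR 1.98-fold and the oncostatin M receptor gene OSMR 2.26-fold. IL20RB rose 13.3-fold, with 100 counts over the microRNA libraries and 6 over the vehicle libraries. IL4R was called lower (log2 fold change -0.25), but not when scaled by library size alone (adjusted p = 0.281) or without vehicle replicate 4 (0.0661).

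Among 5 tested JAK, STAT and IRF genes outside the 9, 3 rose, 1 fell and 1 did not pass. Of all tested genes, 33.4% were called higher and 34.0% lower. STAT6, the STAT of interleukin 4 signalling, rose 2.43-fold (105 ± 9.53 CPM with the microRNAs, 43.1 ± 5.07 CPM with vehicle, SD, n = 4 each). STAT5A was called lower (log2 fold change -0.75, edgeR adjusted p = 0.0343), a call lost with DESeq2 (0.0585), with library size alone (0.0836), with no filter (0.0513), without microRNA replicate 4 (0.147) and without vehicle replicate 1 (0.0594), 2 (0.0923) or 3 (0.0524). STAT5B did not pass (log2 fold change -0.30, adjusted p = 0.0899), but was called lower without microRNA replicate 3 (-0.38, adjusted p = 0.0364) and without vehicle replicate 2 (-0.46, adjusted p = 0.0109). IRF5 and IRF8 had 2 counts or fewer per group. Of the co-repressors that bind IRF2, IRF2BPL fell (log2 fold change -0.68), and IRF2BP2 was 1.17-fold higher, a call lost without microRNA replicate 2 (adjusted p = 0.0858) and without vehicle replicate 1 (0.119) or 2 (0.0708).

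Inhibitors of the pathway moved both ways: of 19 tested, 8 rose, 4 fell and 7 missed the threshold (median 0.06), beside 33.4% higher and 34.0% lower over all tested genes. These counts depended on the setting: 5 rose and 2 fell without microRNA replicate 2, and 2 fell with DESeq2, upper-quartile scaling, library size alone or no filter, and without microRNA replicate 3 or vehicle replicate 3. Of the genes called higher, SH2B3 lost its call in 9 of the 17 other settings, SOCS7 in 3, and SOCS3 and PIAS4 in 2 each. USP18, which shuts off signalling at IFNAR2 and is itself an interferon-responsive gene, rose 6.23-fold, and the cytokine signalling suppressor gene SOCS2 1.88-fold. The phosphatase genes PTPN1 and PTPN11 rose 1.21-fold and 1.17-fold. The co-repressor gene TRIM28 fell (log2 fold change -1.33), as did the ubiquitin ligase gene CBL (-0.81). PIAS2 and LNX1 were called lower, but each call was lost in 8 or more of the 17 other settings, DESeq2 among them (adjusted p = 0.0654 for PIAS2 and 0.0904 for LNX1).

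Among 16 kinases and cofactors that act on IRF3 and IRF7, 6 rose, 3 fell and 7 did not pass (median 0.27), with the share that rose close to the 33.4% of all tested genes. Scaled by library size alone, 9 rose and 1 fell, as AZI2 (adjusted p = 0.222) and CHUK (0.108) were then no longer called lower. Both calls were also lost without 1 library, that of AZI2 without microRNA replicate 2 (0.0927) and that of CHUK without microRNA replicate 3 (0.0607) or vehicle replicate 3 (0.0694). Without microRNA replicate 2 or 3 or vehicle replicate 3, 2 fell. TBK1, the kinase of IRF3 and IRF7, measured 28.6 CPM with the microRNAs and 27.8 CPM with vehicle and did not pass (edgeR adjusted p = 0.833), nor did IKBKE. OPTN, which encodes a TBK1-binding adaptor and autophagy receptor, rose 10.8-fold. The RNA helicase gene DDX3X rose 1.496-fold, and TRAF3, an adaptor of TBK1 activation, 1.71-fold. IRAK1, a kinase of Toll-like receptor signalling that acts on IRF7, fell (log2 fold change -1.36).

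Target genes of the different factors moved by different amounts. All 39 tested genes that respond to ISGF3 rose, with a median of 2.43, and 22 of the 32 of them with a promoter entry held the ISRE word. Among them OAS2, a double-stranded RNA-activated synthetase gene, rose 16.2-fold and IFIT3, an antiviral effector gene, 5.73-fold. Of 14 tested genes that respond to IRF1 and to the gamma-activated factor (GAF), 13 rose and 1 did not pass (median 1.91). TAP1, the peptide transporter of antigen presentation, rose 11.0-fold, the immunoproteasome gene PSMB8 3.67-fold and the guanylate-binding protein gene GBP3, one of a family of similar genes among which reads could be split, 18.3-fold. Of 17 tested genes that respond to STAT3, 9 rose, 5 fell and 3 did not pass (median 0.50). Over all tested genes 33.4% were called higher and 34.0% lower, and the share of this list that fell was near the latter. In the STAT3 list the number that rose was 7 without microRNA replicate 2 and 10 with library size alone. The ISRE word was in 0 of the 12 STAT3-responsive genes with a promoter entry. MCL1, a survival factor, rose 2.99-fold and JUNB 3.23-fold, while MYC fell (log2 fold change -1.13), as did CCND1 (-0.89). These lists were written with earlier results of these data known and are given as counts only.

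**Figure D5:**
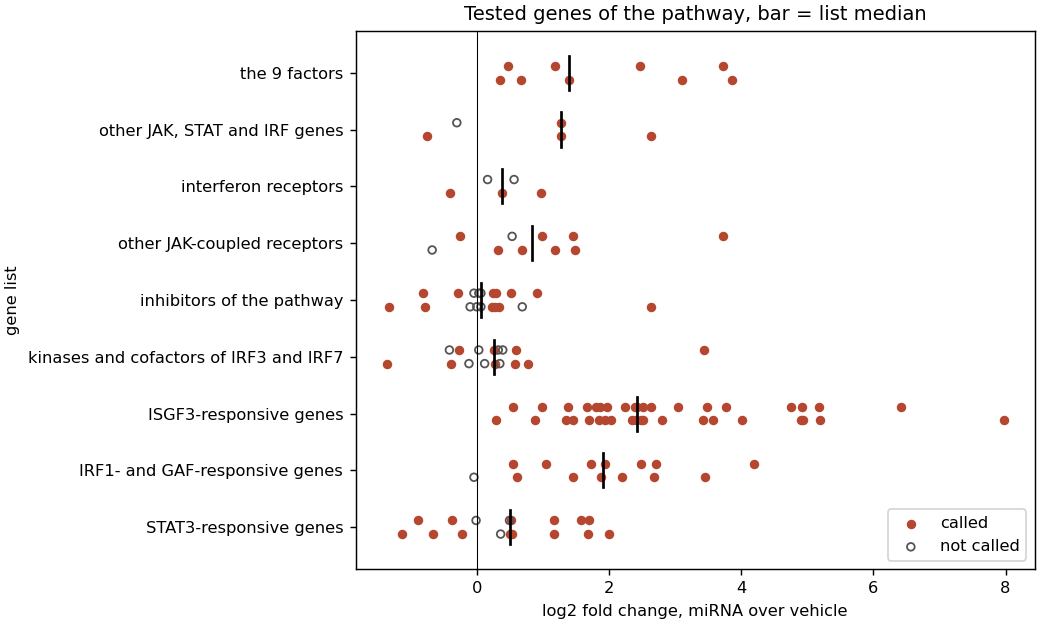
Log2 fold change, microRNA over vehicle (horizontal axis), of each tested gene in 9 lists; filled points passed the edgeR test, open points did not, and black bars are list medians. The 9 factors have a median of 1.40, genes responsive to ISGF3 2.43, inhibitors 0.06 and interferon receptors 0.38.

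The genes whose pattern over the 8 libraries lay nearest to each factor were found by the root mean square difference of log2 CPM, each gene centred on its own mean, among 10752 tested genes averaging at least 5 CPM. The difference between the 2 groups enters this distance, so a near gene may share no more than a similar fold change. Nearest to STAT2 were SYT11 at 0.0886 and IFIT3 at 0.104, and nearest to IRF1 were TLCD2 at 0.149 and MAFF at 0.205. For IRF2 they were PTPRS at 0.0647 and ACADS at 0.0871, and for JAK1 ZNF268 at 0.0416 and SPTAN1 at 0.0522. For STAT3 they were ST13 and CSNK2A1, for TYK2 RC3H2 and PPID, and for IRF3 BCL2L11 and MYCL. The 2 genes of low count matched less closely: for IRF9 the nearest were IER3 at 0.292 and SMIM14 at 0.342, and for IRF7 CCDC113 at 0.458 and SPATA17 at 0.536. Among the 9 themselves, the nearest partner was IRF1 for STAT2 (0.407), IRF2 for JAK1 (0.188) and TYK2 for STAT3 (0.152).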

How the data were processed

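Each deposited value is a whole-number count of reads for 1 gene symbol in 1 library. Per the submitters' processing notes, which assign no roles, TopHat2 (2.0.13), SAMtools (0.1.19.24) and HTSeq (0.5.3p3) were used, as were DESeq2 and GRCh38. Annotation and strand setting: not given in the sources used here. The kit was TruSeq Stranded mRNA, per the labels.

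The 12366 genes tested, holding 99.46% of counts, are those that filterByExpr kept (at least 10 counts, 15 in total). Scaling was by TMM, and the test was edgeR's quasi-likelihood test (glmQLFit, robust, then glmQLFTest; edgeR 4.0.16, R 4.3.3) with group as its sole term. An SE is the log2 fold change over the square root of F. CPM use TMM library sizes, and log2 ratios add a prior count of 2. The procedure was tested on simulated data. Replicates differed beyond sampling noise (mean chi-square per gene 2.21 to 5.89), so each library counts once. Intervals and floors cover counting error only.

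The 9 genes, lists and pairs were chosen with earlier results of these data known. All 9 are named. From each other list, up to 4 called genes in each direction with the smallest adjusted p and a mean of at least 1 CPM are eligible, plus ligands, receptors, other JAK, STAT and IRF genes, markers, and the 2 nearest genes by pattern. TBK1, IKBKE, SH2B3, SOCS7, SOCS3 and PIAS4 were named after their values were seen. Certain eligible genes are left out here. Alternatives were DESeq2 1.42.0, limma-voom (limma 3.58.1), other scalings and filters, removal of mitochondrially encoded genes, a prior count of 0.5, a replicate block, and leaving out each library.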

Additional observations from a re-analysis of the deposited data

Results flagged for a closer look

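One value of the 9 genes stood apart within its group. IRF1 in microRNA replicate 2 was 58.9 CPM, below the other 3 microRNA libraries, and its gap to the nearest of them was 0.854 of the group's range, above Dixon's 95% critical value for 4 libraries. Chance flags about 1 in 20 groups, and 18 groups were checked. Without that library the IRF1 log2 fold change was 3.16, against 3.10 with it. IRF9 in microRNA replicate 4, at 5.47 CPM, had a gap of 0.802 and stayed under that value.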

How the results depend on the processing

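Each of the 9 genes was higher and passed under all 17 alternatives. Their largest adjusted p was 0.00489, for STAT3, whose log2 fold change ran from 0.31 to 0.48. IRF7 ran from 3.60 to 4.29, IRF9 from 3.59 to 3.97, and IRF3 from 0.58 to 0.81. Genes called numbered 8324, and 7830 with DESeq2. Scaled by library size alone, the typical gene moved up by 0.138 on the log2 scale, giving 4890 genes higher and 3453 lower, where TMM gave 4125 higher and 4199 lower. Changes are thus relative to the typical tested gene. Libraries of the same number deviated together only weakly (correlations of 0.0135 to 0.0555). Still, 4 of 4 microRNA and 3 of 4 vehicle libraries correlated best with their own number. With the replicate block 8273 genes were called, and all 9 still passed. For the ratios, the 4 pairs of libraries allow no p under 0.125, so the block gives no test of them. Leaving out a library, 7958 to 8315 genes were called. Depth limits IRF9 and IRF7 most, with 12 and 31 counts over the vehicle libraries.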
